A study of Mus musculus with 16 samples.

Results

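Transcripts of 6 receptors that macrophages use to sense chemoattractants, Ccr1, Ccr2, Cx3cr1, Ccrl2, Cxcr4 and Cmklr1, were described in 16 RNA-seq libraries of mouse bone marrow-derived macrophages. The 6 genes were chosen by symbol and matched to 6 of the 54532 Ensembl gene identifiers measured in each library. Marrow cells of FVB/N mice were differentiated for several days with supernatant of L929 cells, a source of the macrophage growth factor M-CSF, and then treated for 24 h. The groups, with 4 libraries each, were FOXO3-/- cells with 100 nM dexamethasone, FOXO3-/- cells with vehicle (DMSO), wild-type cells with 100 nM dexamethasone and wild-type cells with vehicle (KO dexamethasone, KO vehicle, WT dexamethasone and WT vehicle below). Dexamethasone is a synthetic glucocorticoid that activates the glucocorticoid receptor, and FOXO3 is a forkhead transcription factor. The sources used here give neither the part of the Foxo3 gene that the allele lacks nor the number of mice behind the libraries, so p-values measure the spread between libraries, which may be technical.

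Chemokines are small secreted proteins that bind G protein-coupled receptors on leukocytes, and Gi signalling from these receptors steers cell migration. CCR1 binds several inflammatory CC chemokines, among them CCL3, CCL5, CCL6 and CCL9. CCR2 binds CCL2, CCL7 and CCL12 and brings Ly6C-high monocytes out of the marrow and into inflamed tissue. CX3CR1 binds the membrane-tethered chemokine CX3CL1 and marks patrolling monocytes and several resident macrophages. CXCR4 binds CXCL12 and retains cells in the marrow. CMKLR1 binds chemerin, the product of Rarres2, while CCRL2 binds chemerin without signalling through G proteins and presents it to cells that carry CMKLR1.

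On GRCm38, 4 of the 6 genes lay on chromosome 9. Ccr1 (ENSMUSG00000025804) lies at chr9:123962124-123968692 on the minus strand and Ccr2 (ENSMUSG00000049103) at chr9:124101950-124113557 on the plus strand. Cx3cr1 (ENSMUSG00000052336) lies at chr9:119901616-120069879 and Ccrl2 (ENSMUSG00000043953) at chr9:111054486-111057519, both on the minus strand. Cxcr4 (ENSMUSG00000045382) lies at chr1:128588199-128592293 and Cmklr1 (ENSMUSG00000042190) at chr5:113612354-113650426, again on the minus strand.

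Because the receptors moved in different directions with dexamethasone, the 250 bases before the annotated RefSeq start site (GRCm38.p6) are shown for the 4 receptors whose window held at most 1 base of an annotated exon of the gene. The Ccr2 and Cx3cr1 windows overlapped 233 and 250 such bases and are not shown. Capitals mark the letters AGAACA, the hexamer that the glucocorticoid receptor binds, which was searched on both strands as AGAACA or TGTTCT. The windows are chr9:123968693-123968942, chr9:111057519-111057768, chr1:128592300-128592549 and chr5:113643604-113643853, each on the minus strand and written 5′ to 3′ in the direction of transcription.
Ccr1: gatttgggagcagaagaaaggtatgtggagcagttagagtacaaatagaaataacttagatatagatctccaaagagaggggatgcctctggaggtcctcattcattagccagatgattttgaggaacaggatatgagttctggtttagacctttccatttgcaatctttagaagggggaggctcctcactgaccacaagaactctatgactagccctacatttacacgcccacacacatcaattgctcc
Ccrl2: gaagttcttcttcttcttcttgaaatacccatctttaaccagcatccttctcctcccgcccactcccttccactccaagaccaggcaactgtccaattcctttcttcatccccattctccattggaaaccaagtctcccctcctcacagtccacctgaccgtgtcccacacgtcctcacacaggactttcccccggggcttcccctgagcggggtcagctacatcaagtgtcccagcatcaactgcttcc
Cxcr4: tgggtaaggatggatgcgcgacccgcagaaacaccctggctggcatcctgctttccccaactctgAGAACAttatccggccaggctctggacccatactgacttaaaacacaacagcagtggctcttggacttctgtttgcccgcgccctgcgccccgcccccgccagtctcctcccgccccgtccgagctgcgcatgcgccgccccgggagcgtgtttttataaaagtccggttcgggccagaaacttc
Cmklr1: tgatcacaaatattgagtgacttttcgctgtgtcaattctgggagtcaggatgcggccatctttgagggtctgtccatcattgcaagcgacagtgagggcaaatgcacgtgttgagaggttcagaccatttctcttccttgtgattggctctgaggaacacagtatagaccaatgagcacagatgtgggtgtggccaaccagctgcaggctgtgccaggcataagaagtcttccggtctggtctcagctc
The Cxcr4 window holds the hexamer once, 185 to 180 bases before the start. The windows of Ccr1 and Cmklr1 and the Ccrl2 window shown do not hold these letters, and neither do the windows of Ccr2 and Cx3cr1. The Cmklr1 and Cx3cr1 windows lie within the spans given above for these genes, and the bases before those spans were not searched. At the other Ccrl2 start sites of RefSeq, TGTTCT occurs 119 to 114 bases before the second and 145 to 140 bases before the third, which is the same stretch of genome. The hexamer occurs in 16.1% of 32851 RefSeq windows of this length, and the spaced palindrome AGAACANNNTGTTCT in 3 of them and in none of the 6 genes. The forkhead core GTAAACA, searched also as TGTTTAC, occurs in 3.17% of windows and in none of those of the 6 genes. A match of letters is a description and not evidence of binding.

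The libraries held 16886745 to 20584573 reads as recovered from the deposited values in FPKM, which count fragments relative to exon length and library depth. Foxo3 averaged 24.5 ± 1.44 FPKM in KO dexamethasone, 23.8 ± 0.635 in KO vehicle, 23.2 ± 1.07 in WT dexamethasone and 24.7 ± 1.72 in WT vehicle libraries (SD, n = 4 each). The gene total therefore does not check the genotype labels. The 10 macrophage markers, such as Adgre1 and Csf1r, were all detected, with sums of 9780 to 15800 FPKM over the 16 libraries. Markers of dendritic, T and NK cells stayed under 1 FPKM in every library, as did 7 of 9 neutrophil markers and 4 of 6 B cell markers. Stromal markers varied much more. The summed FPKM of 10 such genes ran from 6.91 to 103 in KO dexamethasone, 4.89 to 518 in KO vehicle, 76.0 to 1300 in WT dexamethasone and 38.6 to 683 in WT vehicle libraries. KO vehicle replicate 4 lay far above its group in these markers, and WT dexamethasone replicate 4 and WT vehicle replicate 3 lay far below theirs. Results that rest on these 3 libraries are given with and without them. In bulk samples, fewer cells of a type and less RNA per cell cannot be told apart.

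By median over the 16 libraries, Cxcr4 was the most abundant receptor of the 6, at 125 FPKM. Cmklr1 followed at 23.4 FPKM, Ccrl2 at 9.73 FPKM and Ccr1 at 6.2 FPKM. Ccr2 and Cx3cr1 had medians of 0.364 and 0.363 FPKM. The mean of Cxcr4 over the 16 libraries, 131 FPKM, lay above the means of 97.0% of the 11654 genes tested. Within libraries, Cxcr4 exceeded Cmklr1, Cmklr1 exceeded Ccrl2 and Ccr1 exceeded Ccr2 in 16 of 16. Ccrl2 exceeded Ccr1 in 15 of 16 libraries, all but WT vehicle replicate 3. Ccr2 exceeded Cx3cr1 in 11 of 16, so the order of these last receptors differed between libraries.

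**Figure D1:**
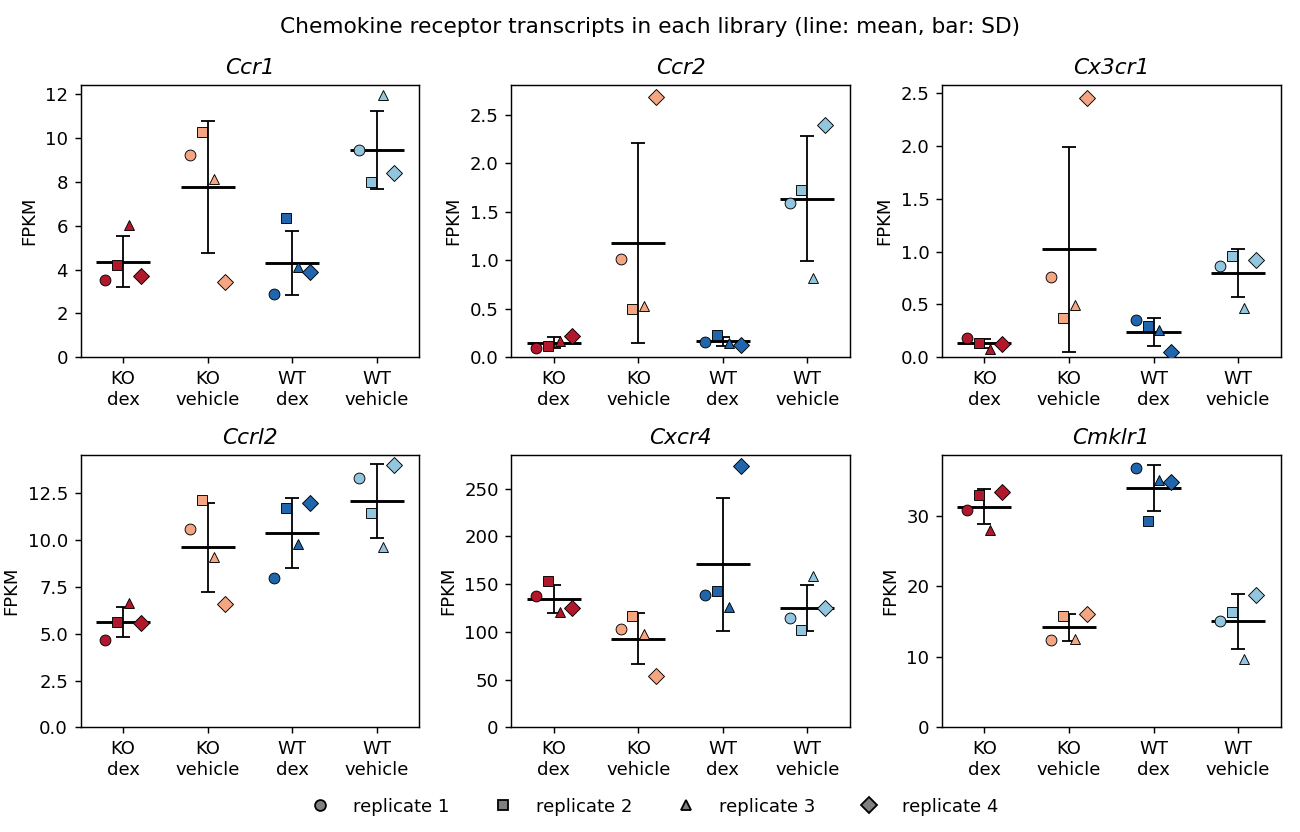
FPKM of each receptor (vertical axes, linear, from 0) in every library of the 4 groups (horizontal axes), with symbols for the replicate number, a line for the mean and a bar for the SD. Cmklr1 lay at 28.0 FPKM or above in all 8 dexamethasone libraries and at 18.8 FPKM or below in all 8 vehicle libraries, while Ccr2 and Cx3cr1 were lower in every dexamethasone library than in any vehicle library of the same genotype.

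Dexamethasone raised Cmklr1, lowered Ccr2 in both genotypes, and lowered Ccr1 in WT and Ccrl2 in KO cells by the test used. The comparison asks how the glucocorticoid shifts chemoattractant receptor transcripts in macrophages with and without FOXO3. Differences were tested with limma on log2(FPKM + 1), with p-values adjusted by the Benjamini-Hochberg method over 11654 genes and called under 0.05. Of the 6 receptors, 5 passed the filter on low values, and Cx3cr1 did not. In KO cells 3 of the 5 were called, beside 39.1% of all genes tested, with 1 higher (15% of all genes) and 2 lower (24.1%). In WT cells 3 of the 5 were called, beside 30.1% of all genes, with 1 higher (11.9%) and 2 lower (18.2%). The share called among the receptors is thus read against a background in which many genes moved. Ccr2 was 1 of the 2 lower calls in each genotype. It passed the filter only through 5 vehicle libraries, so its call was favoured by the filter.

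Cmklr1, the chemerin receptor, gave the clearest response. It measured 30.8, 33.0, 28.0 and 33.4 FPKM in the KO dexamethasone libraries, against 12.4, 15.7, 12.6 and 16.02 FPKM in the KO vehicle libraries. In WT cells it measured 36.8, 29.3, 35.2 and 34.8 FPKM with dexamethasone, against 15.1, 16.4, 9.73 and 18.8 FPKM with vehicle. All 8 dexamethasone libraries lay above all 8 vehicle libraries. The means were 31.3 ± 2.50 FPKM in KO dexamethasone and 14.2 ± 1.96 FPKM in KO vehicle libraries, a ratio of 2.21, and the log2 difference was 1.10 ± 0.153 (SE; limma adjusted p = 6.4e-05). In WT cells the means were 34.0 ± 3.27 FPKM with dexamethasone and 15.02 ± 3.85 FPKM with vehicle, a ratio of 2.26, and the log2 difference was 1.16 ± 0.153 (adjusted p = 5.84e-05). Both calls held under all 26 alternatives run, with log2 differences of 1.04 to 1.32 in KO and 0.96 to 1.30 in WT cells.

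Ccrl2, which binds the same ligand, moved the other way in KO cells. It measured 4.68, 5.60, 6.63 and 5.56 FPKM in the KO dexamethasone libraries, against 10.6, 12.2, 9.11 and 6.595 FPKM in the KO vehicle libraries. The groups touched only where the highest dexamethasone library met KO vehicle replicate 4. The log2 difference was -0.66 ± 0.167 (SE; limma adjusted p = 0.00605), and the means were 5.62 ± 0.797 FPKM in KO dexamethasone and 9.62 ± 2.37 FPKM in KO vehicle libraries. In WT cells Ccrl2 measured 7.95, 11.7, 9.80 and 12 FPKM with dexamethasone, against 13.3, 11.5, 9.65 and 14.03 FPKM with vehicle. These groups overlapped, and the log2 difference of -0.21 ± 0.167 was not called (adjusted p = 0.381). The difference between the genotypes' responses, -0.45 ± 0.237 on the log2 scale, was not called either (adjusted p = 0.485), so a response particular to KO cells was not shown.

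Ccr1, the receptor for several inflammatory CC chemokines, was lower with dexamethasone in WT cells. It measured 2.90, 6.34, 4.13 and 3.89 FPKM in the WT dexamethasone libraries, against 9.45, 7.99, 11.98 and 8.43 FPKM in the WT vehicle libraries. The groups did not overlap, the means were 4.31 ± 1.45 FPKM with dexamethasone and 9.46 ± 1.79 FPKM with vehicle, and the log2 difference was -1.0 ± 0.263 (SE; limma adjusted p = 0.0101). In KO cells Ccr1 measured 3.51, 4.20, 6.06 and 3.72 FPKM with dexamethasone, against 9.22, 10.3, 8.15 and 3.45 FPKM with vehicle. Of the KO vehicle libraries 3 lay above all dexamethasone libraries, and replicate 4, the library with high stromal markers, lay below them. The log2 difference was -0.65 ± 0.263 and was not called (adjusted p = 0.0642). Without KO vehicle replicate 4 it was -0.95 and was called (adjusted p = 0.00201), and without the 3 libraries apart in stromal markers it was again -0.95 (adjusted p = 0.0015). Without KO dexamethasone replicate 3, the highest of its group, it was -0.79 (adjusted p = 0.041), and without KO vehicle replicate 2, the highest of its group, it was -0.50 (adjusted p = 0.187). The threshold was missed under 21 of 26 alternatives.

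Ccr2, the receptor of inflammatory monocytes, was low everywhere and lowest with dexamethasone. It measured 0.0929, 0.116, 0.171 and 0.216 FPKM in the KO dexamethasone libraries, against 1.01, 0.5, 0.528 and 2.68 FPKM in the KO vehicle libraries. In WT cells it measured 0.153, 0.227, 0.143 and 0.128 FPKM with dexamethasone, against 1.59, 1.73, 0.822 and 2.40 FPKM with vehicle. Every dexamethasone library lay below every vehicle library, and the recovered reads summed to 77 in KO dexamethasone, 586 in KO vehicle, 80 in WT dexamethasone and 770 in WT vehicle libraries. The mean was 7.93-fold lower with dexamethasone in KO cells and 10.05-fold lower in WT cells. Without the 3 libraries apart in stromal markers, these ratios were 4.57 and 10.9.

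On the log2(FPKM + 1) scale, which understates changes of low genes, the Ccr2 difference was -0.82 ± 0.242 in KO cells (SE; limma adjusted p = 0.0145) and -1.15 ± 0.242 in WT cells (adjusted p = 0.00249). On recovered reads, limma voom gave -2.49 in KO and -3.14 in WT cells. Ccr2 passed the filter on low values only through 5 vehicle libraries, so that it had to differ among the genes tested. With a looser filter of 0.1 FPKM in 4 libraries, under which 16.2% of 17663 genes were called lower in KO and 11.9% in WT cells, the adjusted p was 0.0166 in KO and 0.00286 in WT cells.

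Ccr2 is also used as a monocyte marker, and the other monocyte markers that were called were higher with dexamethasone. The 8 monocyte markers, Ccr2 included, summed to 157 to 214 FPKM in KO dexamethasone, 12.6 to 47.9 in KO vehicle, 128 to 295 in WT dexamethasone and 11.1 to 58.4 in WT vehicle libraries. Among the 6 tested, 4 were higher and 1, Ccr2, was lower with dexamethasone in KO cells, and 3 were higher and 1, again Ccr2, was lower in WT cells. Of all genes, 15% were higher and 24.1% lower in KO cells, and 11.9% higher and 18.2% lower in WT cells. Ccr2 passed the filter only through vehicle libraries, and the marker Chil3 only through dexamethasone libraries. Most of the sum came from F13a1, which averaged 103 ± 23.6 FPKM in KO dexamethasone against 6.43 ± 2.53 FPKM in KO vehicle libraries, and from Hp. Ly6c2, the defining antigen gene of inflammatory monocytes, stayed at or under 0.421 FPKM in all 16 libraries.

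Cx3cr1, the CX3CL1 receptor, reached 1 FPKM in 1 library only. It measured 0.177, 0.139, 0.0816 and 0.123 FPKM in the KO dexamethasone libraries, against 0.760, 0.375, 0.499 and 2.46 FPKM in the KO vehicle libraries. In WT cells it measured 0.351, 0.295, 0.262 and 0.0512 FPKM with dexamethasone, against 0.863, 0.959, 0.463 and 0.917 FPKM with vehicle. The groups did not overlap in either genotype. Recovered reads were between 4 and 214 per library, so each value carries a wide counting error.

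An exact two-sided permutation test of the Cx3cr1 FPKM gave p = 0.0286 for dexamethasone against vehicle in each genotype, the smallest that 4 against 4 libraries allow, and 0.0572 after Benjamini-Hochberg adjustment over 4 comparisons. Under the looser filter, limma gave a log2 difference of -0.74 ± 0.215 in KO cells (SE; adjusted p = 0.0191) and of -0.54 ± 0.215 in WT cells (adjusted p = 0.0955). The mean was 7.86-fold lower with dexamethasone in KO cells, and 4.18-fold lower without KO vehicle replicate 4, which held the single value above 1 FPKM. In WT cells it was 3.34-fold lower. A stretch of 78 exon bases is shared with the antisense gene Gm33858, which was listed at 0 in every library.

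Cxcr4, the CXCL12 receptor, was higher with dexamethasone in KO cells in every library, but missed the threshold. It measured 138, 153, 121 and 125 FPKM in the KO dexamethasone libraries, against 103, 116, 97.5 and 54.2 FPKM in the KO vehicle libraries. The groups did not overlap, and the log2 difference was 0.58 ± 0.249 (SE; limma adjusted p = 0.0808). Under median-ratio scaling the adjusted p was 0.0466, under quantile normalization 0.0132 and with voom on recovered reads 0.012. Without the 3 libraries apart in stromal markers the difference was 0.34 (adjusted p = 0.0108), and without KO vehicle replicate 4 alone it was also 0.34 but missed the threshold (adjusted p = 0.248). The threshold was missed under 20 of 26 alternatives. The wide spread came from 2 libraries, KO vehicle replicate 4 at 54.2 FPKM and WT dexamethasone replicate 4 at 274 FPKM. Without the second of these, which enters the KO comparison only through the shared spread, the adjusted p was 0.0289.

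In WT cells Cxcr4 measured 139, 143, 126 and 274 FPKM with dexamethasone, against 114, 102, 158 and 125 FPKM with vehicle. The groups overlapped through WT vehicle replicate 3, and the log2 difference was 0.39 ± 0.249 (SE; limma adjusted p = 0.264). The log2 difference in WT cells ran from 0.14 to 0.56 over the 26 alternatives, lowest without WT dexamethasone replicate 4 (adjusted p = 0.655). The dexamethasone mean was 1.45 times that of vehicle in KO cells and 1.37 times in WT cells, and without the 3 libraries apart in stromal markers 1.27 times in KO and 1.19 times in WT cells.

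**Figure D2:**
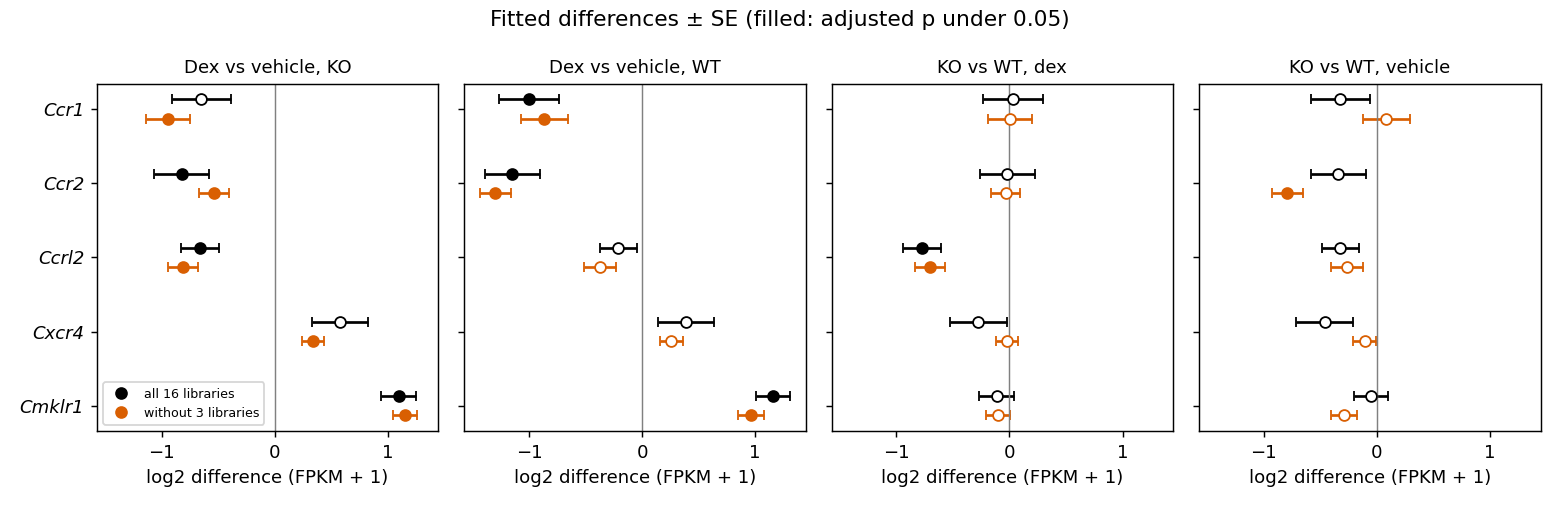
Log2 differences of FPKM + 1 (horizontal axes) with their SE for the 5 receptors tested (rows), in the 4 comparisons (panels), with all 16 libraries in black and without the 3 libraries apart in stromal markers in orange. Filled points passed the adjusted p threshold of 0.05. Cmklr1 and Ccr2 are filled in both dexamethasone panels in either colour, Ccr1 and Cxcr4 in KO cells are filled only without the 3 libraries, and Ccr2 is filled in the KO against WT vehicle panel only without them.

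Between genotypes under dexamethasone, Ccrl2 was lower in KO cells and was the only 1 of the 5 tested receptors to be called, beside 26.7% of all genes (14.3% higher and 12.4% lower). Its 4 KO dexamethasone libraries, at 4.68 to 6.63 FPKM, all lay below the 4 WT dexamethasone libraries, at 7.95 to 12 FPKM. The log2 difference was -0.77 ± 0.167 (SE; limma adjusted p = 0.00589), with means of 5.62 ± 0.797 FPKM in KO and 10.4 ± 1.88 FPKM in WT cells. It was called under all 26 alternatives, with log2 differences of -0.88 to -0.70, among them the fit without the 3 libraries (-0.70, adjusted p = 0.000931) and the fit with the stromal score as a covariate (-0.88, adjusted p = 0.0169). Stromal markers moved with this comparison, with 7 of the 8 tested lower in KO cells, and 7 of 10 macrophage markers were higher in KO cells.

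The other receptors did not pass in that comparison. The log2 difference of KO against WT under dexamethasone was 0.03 ± 0.263 for Ccr1, -0.02 ± 0.242 for Ccr2, -0.11 ± 0.153 for Cmklr1 and -0.27 ± 0.249 for Cxcr4 (SE; limma adjusted p = 0.944, 0.966, 0.611 and 0.432 in that order). With the stromal score as a covariate the Cxcr4 difference was -0.93 and was called (adjusted p = 0.00157). Cx3cr1 averaged 0.130 ± 0.0397 FPKM in KO and 0.240 ± 0.131 FPKM in WT dexamethasone libraries, and the exact permutation p was 0.171.

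Between genotypes in vehicle, none of the 5 tested receptors was called by limma, beside 4.68% of all genes (3.37% higher and 1.3% lower), and none had an unadjusted p under 0.05. Voom on recovered reads also called none. In the limma fit on log2(FPKM + 1) the log2 differences were all negative, from -0.46 ± 0.249 for Cxcr4 (SE; adjusted p = 0.29) to -0.05 ± 0.153 for Cmklr1 (adjusted p = 0.874). Ccr2 turned on 1 library. With all libraries its difference was -0.34 ± 0.242 (adjusted p = 0.419), without KO vehicle replicate 4 it was -0.63 (adjusted p = 0.04), and without the 3 libraries apart in stromal markers it was -0.79 (adjusted p = 0.000719). With the stromal score as a covariate it was 0.10 (adjusted p = 0.848), so the direction depended on how the stromal signal was treated. The Cxcr4 difference was -0.99 with that covariate and was called (adjusted p = 0.00104), and -0.11 without the 3 libraries. Ccr1 measured 9.22, 10.3, 8.15 and 3.45 FPKM in KO vehicle libraries and 7.99 to 11.98 FPKM in WT vehicle libraries, which overlapped. Cx3cr1 averaged 1.02 ± 0.970 FPKM in KO and 0.801 ± 0.229 FPKM in WT vehicle libraries (exact permutation p = 0.943).

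No receptor's response to dexamethasone was called different between genotypes, beside 0.129% of all genes (0.0601% higher and 0.0686% lower), and none had an unadjusted p under 0.05. Voom on recovered reads also called none. In the limma fit on log2(FPKM + 1) the interaction ran from -0.45 ± 0.237 for Ccrl2 to 0.35 ± 0.371 for Ccr1 (SE). Without the 3 libraries apart in stromal markers, the Ccr2 interaction was 0.76 (limma adjusted p = 0.0325), a smaller fall in KO than in WT cells.

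**Figure D3:**
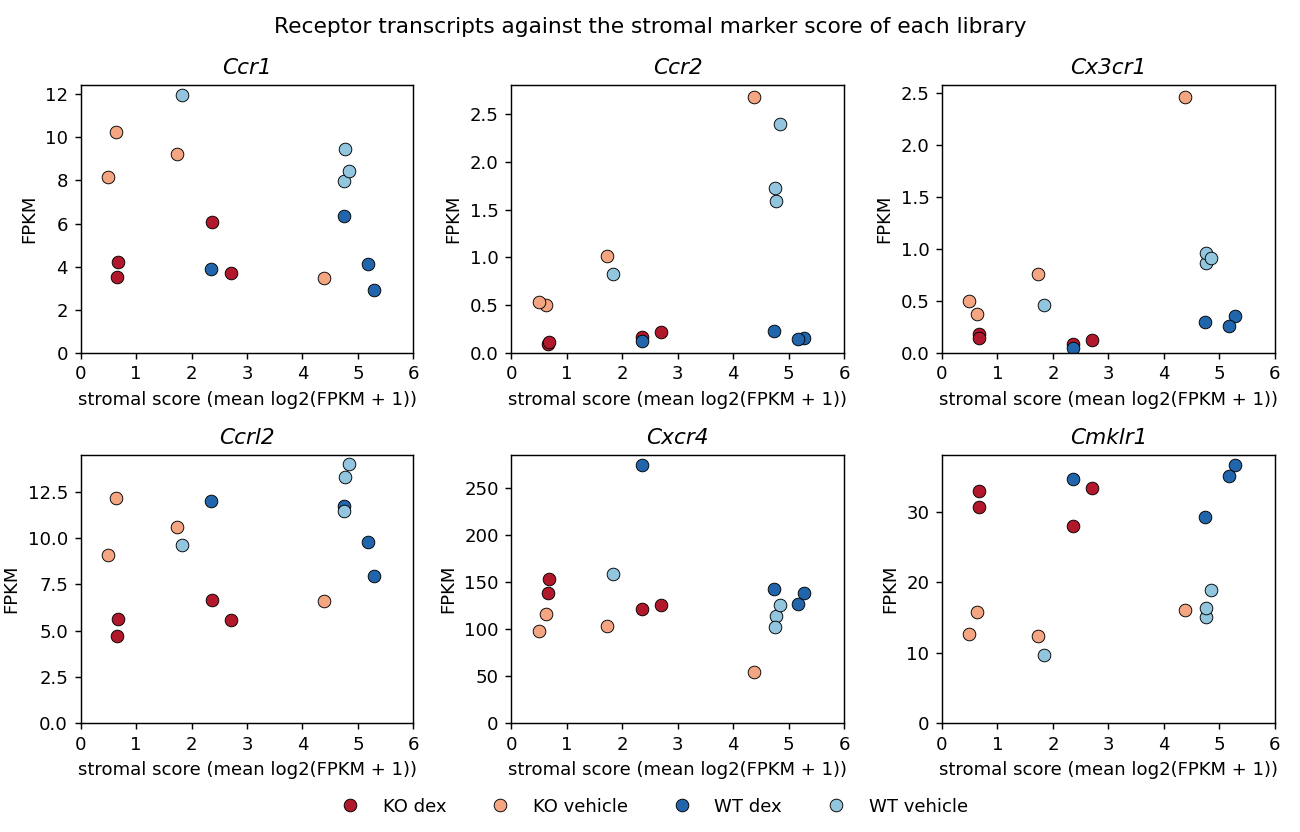
FPKM of each receptor (vertical axes) against the stromal score of each library, the mean log2(FPKM + 1) of 10 stromal markers (horizontal axes), with colours for the 4 groups. KO vehicle replicate 4 stands alone at a score of 4.38 and holds the highest Ccr2 and Cx3cr1 and the lowest Cxcr4 of its group, whereas Cmklr1 separates dexamethasone from vehicle at every score.

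The same 3 libraries bore on the low receptors and on Cxcr4. KO vehicle replicate 4, with a stromal score of 4.38 against 0.493 to 1.73 in the other KO vehicle libraries, had the highest Ccr2, Cx3cr1 and Cmklr1 and the lowest Ccr1, Ccrl2 and Cxcr4 of that group. WT dexamethasone replicate 4, with the lowest score of its group, 2.36, had the lowest Ccr2 and Cx3cr1 and the highest Ccrl2 and Cxcr4. WT vehicle replicate 3, with the lowest score of its group, had the lowest Ccr2, Cx3cr1, Ccrl2 and Cmklr1 and the highest Ccr1 and Cxcr4. The part of stromal cells in these values was not tested.

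On chromosome 9, Ccr1l1 and Ccr3 lie between Ccr1 and Ccr2, within 151434 bases. Ccr3, the eotaxin receptor, measured 0.0698, 0.191, 0.305 and 0.0924 FPKM in KO dexamethasone libraries, against 0.710, 0.480, 0.827 and 0.902 FPKM in KO vehicle libraries. In WT cells it measured 0.0557, 0.0156, 0.0657 and 0.0529 FPKM with dexamethasone, against 0.431, 0.561, 0.920 and 0.501 FPKM with vehicle. The dexamethasone libraries lay below the vehicle libraries in each genotype. Ccr1l1, a gene similar to Ccr1, ranged from 0 to 0.0864 FPKM in KO dexamethasone, 0 to 0.296 in KO vehicle, 0 to 0.0521 in WT dexamethasone and 0.0993 to 0.313 in WT vehicle libraries. Both genes reach the looser filter through the vehicle libraries, of which 8 for Ccr3 and 6 for Ccr1l1 lay at 0.1 FPKM or above. Among the dexamethasone libraries, only 2 KO libraries did so, for Ccr3. That filter favours a fall with dexamethasone, so limma results for these genes under it are not used here.

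Of 29 symbols listed for other chemoattractant receptors, 28 were found as gene names in the annotation, and 10 of these genes were tested. With dexamethasone, 3 were higher and 6 lower in KO cells, beside 15% and 24.1% of all genes. In WT cells 1, the C5a receptor gene C5ar1, was higher, with a log2 difference of 0.69 ± 0.130 (SE; limma adjusted p = 0.00107), and 4 were lower, beside 11.9% and 18.2% of all genes. The median log2 difference of the 10 was -0.71 in KO and -0.11 in WT cells, beside -0.05 and -0.02 over all genes tested. Gpr183, the oxysterol receptor, had log2 differences of -1.35 ± 0.168 in KO (limma adjusted p = 2.26e-05) and -1.01 ± 0.168 in WT cells (adjusted p = 0.00042). Ptafr, the receptor for platelet-activating factor, had differences of -0.95 ± 0.129 in KO (adjusted p = 5.02e-05) and -0.83 ± 0.129 in WT cells (adjusted p = 0.000234). S1pr1, a receptor for sphingosine 1-phosphate, averaged 7.06 ± 1.15 FPKM in KO dexamethasone and 26.4 ± 4.73 FPKM in KO vehicle libraries, a log2 difference of -1.76 ± 0.228 (adjusted p = 3.2e-05). C3ar1, the C3a receptor, averaged 143 ± 31.1 FPKM in WT dexamethasone and 263 ± 49.0 FPKM in WT vehicle libraries, with log2 differences of -0.76 ± 0.137 in KO (adjusted p = 0.000552) and -0.88 ± 0.137 in WT cells (adjusted p = 0.000249). Between genotypes under dexamethasone, 3 were higher and 1 lower in KO cells, beside 14.3% and 12.4% of all genes, and in vehicle the lowest adjusted p of the 10 was 0.0617, for P2ry12. P2ry12, an ADP receptor, was higher in KO cells under dexamethasone by 1.14 ± 0.210 (adjusted p = 0.00229), as was C5ar2, the second C5a receptor gene, by 0.57 ± 0.147 (adjusted p = 0.0136). S1pr1 was lower, with a log2 difference of -1.42 ± 0.228 (adjusted p = 0.000912).

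**Figure D4:**
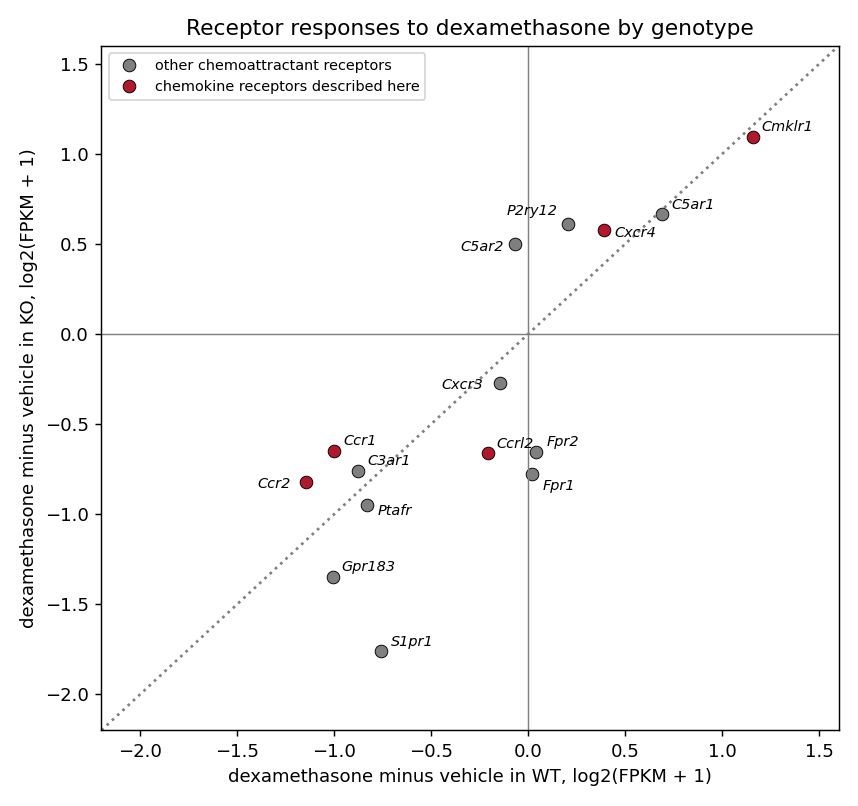
Log2 difference of FPKM + 1 between dexamethasone and vehicle in KO cells (vertical axis) against the same in WT cells (horizontal axis) for the 5 tested receptors described here (red) and 10 other chemoattractant receptors (grey), with a dotted line where both would be equal. Cmklr1 lies at the top right, at 1.10 in KO and 1.16 in WT cells, and Gpr183 at the lower left, at -1.35 in KO and -1.01 in WT cells.

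Of 13 ligand genes listed for the receptors, 12 were tested, and with dexamethasone 1 was higher and 3 were lower in each genotype. Of all genes, 15% were higher and 24.1% lower in KO cells, and 11.9% higher and 18.2% lower in WT cells. Ccl6, a CCR1 ligand, averaged 428 ± 24.2 FPKM in KO dexamethasone against 202 ± 7.08 FPKM in KO vehicle libraries, and 636 ± 88.8 FPKM in WT dexamethasone against 337 ± 40.5 FPKM in WT vehicle libraries. Its log2 difference was 1.08 ± 0.102 in KO (limma adjusted p = 1.73e-06) and 0.91 ± 0.102 in WT cells (adjusted p = 1.33e-05). Both Ccl4 and Ccl3, genes of inflammatory CC chemokines, fell in each genotype. Ccl4 had log2 differences of -2.02 ± 0.1998 in KO (adjusted p = 2.83e-06) and -1.53 ± 0.1998 in WT cells (adjusted p = 5.41e-05), and Ccl3 of -1.64 ± 0.185 in KO (adjusted p = 9.15e-06) and -0.56 ± 0.185 in WT cells (adjusted p = 0.0334). Mif, whose product also binds CXCR4, was lower with dexamethasone in KO cells, with a log2 difference of -1.003 ± 0.210 (adjusted p = 0.0017), and Ccl5 in WT cells, with a difference of -1.04 ± 0.245 (adjusted p = 0.00533). The genes of the CCR2 ligands Ccl2, Ccl7 and Ccl12, and Ccl8, Ccl9 and Cx3cl1, were not called with dexamethasone or between genotypes, and Cxcl12 was not called with dexamethasone. Ccl2 averaged 6.94 ± 5.53 FPKM in KO dexamethasone, 9.55 ± 7.42 in KO vehicle, 19.3 ± 13.5 in WT dexamethasone and 26.7 ± 11.4 in WT vehicle libraries.

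Between genotypes under dexamethasone 5 ligands were lower in KO cells and none higher, namely Ccl3, Ccl6, Cxcl12, Ccl4 and Mif, and in vehicle Ccl6 alone was lower. Of all genes, 12.4% were lower under dexamethasone and 1.3% in vehicle. Cxcl12 passed the filter on low values only through the WT libraries and KO vehicle replicate 4, so its call was favoured by the filter. Ccl6 had log2 differences of -0.56 ± 0.102 under dexamethasone (limma adjusted p = 0.00206) and -0.73 ± 0.102 in vehicle (adjusted p = 0.000792). Cxcl12, the CXCR4 ligand, varied widely between libraries. It measured 0.0140, 0.0191, 0.154 and 0.197 FPKM in the KO dexamethasone libraries and 0.170, 0.0222, 0.0141 and 33.9 FPKM in the KO vehicle libraries. In WT cells it measured 214, 86.6, 219 and 12.2 FPKM with dexamethasone and 49.1, 75.5, 4.19 and 37.1 FPKM with vehicle. In the 3 groups that held a library apart in stromal markers, that library also stood apart in Cxcl12. KO dexamethasone replicate 4 had a stromal score of 2.71 and 0.197 FPKM of Cxcl12, and WT dexamethasone replicate 4 had 2.36 and 12.2 FPKM. KO vehicle replicate 4 had a score of 4.38 and 33.9 FPKM, and WT vehicle replicate 4 had 4.85 and 37.1 FPKM. The part of stromal cells in the Cxcl12 values was not tested. Rarres2, which encodes chemerin, averaged 0.0146 ± 0.00973 FPKM in KO dexamethasone, 0.0347 ± 0.0558 in KO vehicle, 1.72 ± 1.32 in WT dexamethasone and 0.558 ± 0.294 in WT vehicle libraries and did not pass the filter.

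Of 28 tested genes that carry or limit receptor signals, 3 were higher and 14 lower with dexamethasone in KO cells, and 2 were higher and 11 lower in WT cells, beside 15% higher and 24.1% lower of all genes in KO and 11.9% and 18.2% in WT cells. Their median log2 difference was -0.26 in KO and -0.20 in WT cells, beside -0.05 and -0.02 over all genes. Rac2, a GTPase of leukocyte migration, averaged 101.4 ± 4.62 FPKM in KO dexamethasone, 238 ± 2.13 in KO vehicle, 72.1 ± 13.4 in WT dexamethasone and 165 ± 10.4 in WT vehicle libraries. Its log2 difference with dexamethasone was -1.22 ± 0.0947 in KO (limma adjusted p = 2.4e-07) and -1.20 ± 0.0947 in WT cells (adjusted p = 5.01e-07). Dock2, a Rac exchange factor, had differences of -0.82 ± 0.106 in KO and -0.72 ± 0.106 in WT cells, and Cd74, the MHC class II invariant chain that also serves as a MIF receptor, of -2.16 ± 0.355 in KO and -2.95 ± 0.355 in WT cells, all called. Pik3cg, the catalytic subunit of PI3-kinase gamma, had a difference of -0.63 ± 0.108 in KO cells (adjusted p = 0.000393), and Rgs2, an inhibitor of G protein signals, of -1.75 ± 0.229 in WT cells (adjusted p = 5.41e-05).

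Between genotypes, 11 of the 28 signalling genes were higher and 1 lower in KO cells under dexamethasone, beside 14.3% and 12.4% of all genes, and 8 were higher in vehicle, beside 3.37%. Under dexamethasone Grk3, a kinase of activated receptors, was higher in KO cells by 0.74 ± 0.123 on the log2 scale (SE; limma adjusted p = 0.00113), Plcb2, a phospholipase C, by 0.71 ± 0.119 (adjusted p = 0.00114) and Rgs10, another inhibitor of G protein signals, by 0.68 ± 0.120 (adjusted p = 0.00177). In vehicle Rac2 was higher in KO cells by 0.53 ± 0.0947 (adjusted p = 0.00516), Dock2 by 0.56 ± 0.106 (adjusted p = 0.00712) and Pik3cg by 0.54 ± 0.108 (adjusted p = 0.0106). Stromal markers moved with the first comparison, with 7 of the 8 tested lower in KO cells under dexamethasone and a median log2 difference of -3.95. In vehicle their median was -2.86, and all 8 missed the limma threshold, with a lowest adjusted p of 0.148 and 6 at an unadjusted p under 0.05. Their part in these values was not tested.

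Over the 16 libraries, Pearson correlations of log2(FPKM + 1) among the 6 receptors were highest between Ccr2 and Cx3cr1 (r = 0.918) and lowest between Ccr1 and Cmklr1 (r = -0.818). KO vehicle replicate 4, apart in stromal markers, held the highest Ccr2 (2.68 FPKM) and Cx3cr1 (2.46 FPKM) of all libraries. Correlations without it were not computed. The points share the 4 groups and the libraries, so these values describe the pattern of levels and carry no p. Among 10313 other genes, those most like Cmklr1 were Fcgrt (r = 0.975), Tcn2 (r = 0.975) and Kdm6b (r = 0.974), and those most like Ccr2 were Serpina3g (r = 0.973), Tgtp2 (r = 0.967) and Irf1 (r = 0.966). Cx3cr1 was most like Serpina3f (r = 0.925), Serpina3g (r = 0.906) and Gbp8 (r = 0.903). The genes most like Ccr1 were Oit3 (r = 0.915), Dio2 (r = 0.908) and Lat (r = 0.908). Ccrl2 was most like Tecpr1 (r = 0.929), Gadd45a (r = 0.910) and Actr1b (r = 0.906), and Cxcr4 was most like Zbtb42 (r = 0.947), Lysmd1 (r = 0.905) and Tmem71 (r = 0.904).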

How the data were processed

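FPKM values for 54532 Ensembl identifiers were deposited by the authors, 1 file a library. The submitters' processing notes name the builds GRCm38 and mm10 and the tools TopHat2 2.0.12, Bowtie2 2.2.3, DESeq2 and HTSeq 0.6.1. Which tool did what, the annotation version and whether counting used strand are not stated there. GENCODE M21 on GRCm38 named 54495 identifiers, and the 37 others held no more than 0.00529% of any library's FPKM. Groups and replicate numbers came from the sample titles.

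The 11654 genes that reached 1 FPKM in 4 or more of the 16 libraries were tested with limma 3.58.1 in R 4.3.3 on log2(FPKM + 1), with 4 group means, a trend on level and Benjamini-Hochberg adjustment within each of 5 comparisons, and called under 0.05. The fit was tested on simulated data. With GENCODE exon lengths, 96.5% of the values above 0 came out as whole reads within 0.05 reads, and limma voom on these reads called 5008 genes for dexamethasone in KO cells, 3600 in WT cells, 2749 between genotypes under dexamethasone, 515 in vehicle and 7 in the interaction. The lowest chi-square per gene over 24 pairs of libraries of 1 group was 7.86, so none was a repeat deposit.

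The 6 receptors and all gene lists were chosen with earlier results of these data known. The text names the 6 receptors, all tested ligands, up to 4 called genes of each other list per dexamethasone comparison and up to 3 per genotype comparison by smallest adjusted p, and the 3 genes most correlated with each receptor, passing over predicted genes and pseudogenes. Other genes (those between Ccr1 and Ccr2 and single markers) were named for their position or as markers. Alternatives were a pseudocount of 0.1, no filter, a filter of 0.1 FPKM, median-ratio scaling, quantile normalization, only the groups compared, the replicate number as a block, voom and each library left out; leaving out 3 libraries and a stromal score as a covariate were added after seeing the data. A gene of the list of other chemoattractant receptors is not reported here.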

Additional observations from a re-analysis of the deposited data

Results flagged for a closer look

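Cxcr4 in WT dexamethasone replicate 4 measured 274 FPKM, while the other WT dexamethasone libraries lay between 126 and 143 FPKM. Its gap to the nearest of them was 0.89 of the whole range of the group, above Dixon's 95% critical value of 0.83 for 4 values. This was the only flag among 24 groups tested (6 receptors in 4 groups), and chance flags about 1 in 20 groups. The same library had the lowest stromal score of its group, 2.36 against 4.74 to 5.29 in the others, and the lowest Cx3cr1, and whether these are related was not tested.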

How the results depend on the processing

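No called result reversed its direction. Cmklr1 in both genotypes, Ccr2 in both genotypes, Ccr1 in WT cells and Ccrl2 in KO cells with dexamethasone, and Ccrl2 between genotypes under dexamethasone, kept their calls under all 26 alternatives. For Ccr2, all alternatives but no filter and the filter of 0.1 FPKM kept the filter that it passed through vehicle libraries alone. Those fits are therefore not separate support for its calls. Without the 3 libraries apart in stromal markers, the receptors called were 5 for dexamethasone in KO cells, 1 between genotypes in vehicle and 1 in the interaction, and the genes called 5158 between genotypes under dexamethasone, 3958 in vehicle and 725 in the interaction, against 3114, 545 and 15 with all libraries. With the stromal score as a covariate the receptors were 5 in KO cells, 2 between genotypes under dexamethasone and 1 in vehicle, with Cxcr4 in WT cells called for dexamethasone (0.47, adjusted p = 0.00565), and the genes 964 between genotypes under dexamethasone, 354 in vehicle and 117 in the interaction. The number of all genes called for dexamethasone in KO cells in these fits is not given. The 5 receptors called there are therefore not read as particular to the receptors. Fitting only the groups compared gave 244 genes in vehicle, and the interaction had 6 genes with no filter and 7 with voom. The causes of these changes were not tested.

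Leaving out 1 library at a time gave 3 to 4 receptors called in KO cells, 3 to 3 in WT cells, 1 to 1 between genotypes under dexamethasone, 0 to 1 in vehicle and 0 to 0 in the interaction. The genes called ranged from 3761 to 4835, 2898 to 3656, 1517 to 4070, 278 to 1623 and 2 to 330 in the same order, with the highest without WT dexamethasone replicate 4 (4070 under dexamethasone, 330 in the interaction) and, in vehicle, without WT vehicle replicate 3 (1623) or KO vehicle replicate 4 (1285). The share of higher calls was 38.4% in KO cells, 39.5% in WT cells and 72.1% between genotypes in vehicle as reported, and 48.4%, 48.4% and 60.4% under median-ratio scaling and 51.1%, 47.2% and 61.6% under quantile normalization. Between genotypes under dexamethasone it was 53.7% as reported, 47.1% under median-ratio scaling and 59.1% under quantile normalization. In the interaction it was 46.7%, 58.8% and 56.2%.

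Libraries with the same replicate number did not deviate together (r from -0.763 to 0.732 over 24 pairs, median -0.311, 8 over 0.1), so the numbers were not taken as pairing. With the replicate block the interaction had 1 gene, and Ccr1 in KO cells had an adjusted p of 0.0497. Depth limits Ccr2 and Cx3cr1 most, at 4 to 350 reads per library.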

Other observations

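Ackr3 and Ackr4, genes of atypical receptors that clear chemokines, did not pass the filter on low values and were not tested. Ackr3, the second CXCL12 receptor, ranged from 0 to 0.0752 FPKM in KO dexamethasone, 0 to 0.356 in KO vehicle, 0.0517 to 1.16 in WT dexamethasone and 0.0346 to 0.689 in WT vehicle libraries. Ackr4, a scavenger of CCR7 ligands, ranged from 0.00976 to 0.0849 FPKM in KO dexamethasone, 0.0216 to 0.202 in KO vehicle, 0.107 to 1.41 in WT dexamethasone and 0.0323 to 0.384 in WT vehicle libraries. The stromal score ran from 0.66 to 2.71 in KO dexamethasone and from 2.36 to 5.29 in WT dexamethasone libraries, with 7 of the 8 tested stromal markers lower in KO cells, and its part in these values was not tested.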
